A study of Homo sapiens with 41 samples.

Results

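The genes described here are 42 members of the integrated stress response and the unfolded protein response, out of 21595 genes listed in the A375R tumour table and 23368 listed in each of the other 5 tables. They were chosen by symbol, from knowledge of the pathway and with earlier results of these data known, and not by a threshold on any value. The ATF4 arm holds 22 members, the endoplasmic reticulum (ER) folding arm holds 16, and 4 are the sensors and their transcription factors. All 42 had a mean of at least 10 normalised reads in 5 tables. In the table of H3122 cells 40 did: NUPR1 had no read in any of the 4 libraries, which at their depth allows up to 0.235 reads in each 1000000 from counting error alone, and ALDH1L2 had 2.95 and 0 normalised reads under vehicle and 3.02 and 4.10 under crizotinib.

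Cells meet a shortage of amino acids or a load of unfolded protein in the ER by slowing protein synthesis through phosphorylation of the initiation factor eIF2 alpha, which at the same time favours translation of the transcription factor ATF4. ATF4 then raises genes of amino acid synthesis and uptake and a set of stress regulators, among them DDIT3 (CHOP), TRIB3, CHAC1 and SESN2. In the ER itself the sensor kinases PERK (EIF2AK3) and IRE1 (ERN1) and the membrane-bound factor ATF6 are set off by unfolded protein, and ATF6 and spliced XBP1 raise the chaperones, disulphide isomerases and the machinery of ER-associated degradation. Because ATF4 is controlled largely at translation, and XBP1 by splicing and ATF6 by cleavage, the level of their RNA is not a measure of their activity.

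The series measured RNA of human cancer cell lines under an inhibitor of the kinase that drives them, and of drug-resistant melanoma cells in tumours with or without sensitive cells. A375, Colo800 and UACC62 are melanoma lines given vemurafenib, an inhibitor of mutant BRAF, and H3122 is a lung adenocarcinoma line given crizotinib, an ALK inhibitor. In culture, A375 received 0.1 µM vemurafenib for 6 h or 48 h (3 libraries each, with 3 of vehicle), Colo800 and UACC62 received 1 µM for 48 h (2 libraries and 2 of vehicle in each line), and H3122 received 300 nM crizotinib for 48 h (2 libraries and 2 of vehicle). In mice, A375 tumours were dosed 10 times with vehicle or with 75 mg/kg vemurafenib (4 libraries each), and tumours of A375R, the line labelled as resistant, received the same, either alone or mixed with sensitive A375 cells (3 libraries in each of 4 groups). Drug and vehicle were both given in medium with less serum than the cells had grown in, and the labels give no time for the vehicle of the culture experiments. Tumours were subcutaneous xenografts, and their RNA is the ribosome-associated part recovered by pulling down a GFP tag (translating ribosome affinity purification; the A375R titles name the ribosomal protein RPL10a). Whether the tag in mixed tumours was in the A375R cells, the A375 cells or both is not stated in the labels. Each line is 1 model, and nothing in the labels says that replicates came from separate cultures or animals. The p-values thus measure the spread between these libraries, which may be technical. Relative to counting error (chi-square per degree of freedom) replicate pairs differed by 1.71 and 1.74 in Colo800 and by 1.29 in UACC62 under vehicle (11.8 under drug). In A375 culture it was 5.56 to 30.4, and up to 49.9 in A375R tumours. Very small p-values in Colo800 rest on replicates that were nearly alike. In bulk RNA, fewer cells of a type and less RNA per cell cannot be told apart.

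Libraries held 8063754 to 42843612 reads in genes. DUSP6 and SPRY4, a phosphatase and a feedback inhibitor that MAP kinase signalling induces, served as a check of drug action. Their means were 2793 and 4542 normalised reads in A375 cells under vehicle, 408 and 168 at 6 h and 769 and 142 at 48 h, and they were also lower under drug in Colo800, UACC62, H3122 and A375 tumours. In A375R tumours grown alone the means were 4488 and 1941 under vehicle and 3438 and 1487 under vemurafenib. The sum of both genes was 6192 to 6744 under vehicle there and 4078 to 5854 under drug. In mixed tumours the sum was 7196 to 7824 and 5880 to 7452, and the groups overlapped. No test of these sums was made. Of 8 melanocyte lineage markers, 2 were at 0 in A375 tumours under vehicle, where the summed level was 1201 to 1777 normalised reads against 9261 to 10657 under vemurafenib, and 3 or 4 of the 8 reached a mean of 10 in the A375R groups. H3122 had 6 of 7 lung epithelial markers above that level. One library stood apart for these genes, the third replicate of A375 at 6 h, and results that rest on it are given with and without it.

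Several members are known to be switched on through short motifs close to the start site. RefSeq sequence of GRCh38.p14, from 250 bases before to 50 bases after the start, was matched by symbol for 36 of the 42 members (not matched: NUPR1, PSPH, SHMT2, ALDH1L2, PYCR1 and PDIA3) and for 27305 genes in all, and a gene with several listed starts was counted once if any of them held the motif. The ER stress element (ERSE, CCAAT and CCACG with 9 bases between them, either strand) was found in 7 members, 19.4%, against 0.0916% of all these genes, and its second form (ERSE-II, ATTGG and CCACG with 1 base between them, either strand) in 2 more, 5.56% against 0.0696%. Of 15 matched members of the ER folding arm 8 held one of the forms, and the remaining gene was XBP1. The members were chosen from knowledge of the pathway, so the contrast with all genes was set by that choice and is a description only. Of these 9 genes CANX, which fell in Colo800 and UACC62 and rose in A375 tumours, is not shown. Windows of the other 8 are shown because most of the 9 genes fell in several of the comparisons below. Each is written on the gene's strand with 20 bases on either side of the motif, which is in capitals. In XBP1, HSPA5, PDIA6, HERPUD1 and the first HSP90B1 window it reads forward, and in the others it is on the opposite strand.
HSPA5 (chr9:125241371-125241429, minus strand, motif 66 bases before the start): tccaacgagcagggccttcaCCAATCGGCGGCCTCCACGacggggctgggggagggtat
HSP90B1 (chr12:103930196-103930254, plus strand, 194 bases before): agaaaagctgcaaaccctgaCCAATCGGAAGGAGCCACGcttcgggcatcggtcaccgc
HSP90B1 (chr12:103930301-103930359, plus strand, 89 bases before): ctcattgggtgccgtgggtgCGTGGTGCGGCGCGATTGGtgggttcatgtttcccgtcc
PDIA6 (chr2:10812833-10812891, minus strand, 86 bases before): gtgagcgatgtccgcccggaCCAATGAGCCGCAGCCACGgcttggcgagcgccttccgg
CALR (chr19:12938364-12938422, plus strand, 225 bases before): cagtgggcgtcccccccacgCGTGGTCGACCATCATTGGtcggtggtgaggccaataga
CRELD2 (chr22:49918534-49918592, plus strand, 80 bases before): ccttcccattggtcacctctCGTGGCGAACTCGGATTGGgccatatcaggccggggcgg
XBP1 (chr22:28800583-28800641, minus strand, 52 bases before): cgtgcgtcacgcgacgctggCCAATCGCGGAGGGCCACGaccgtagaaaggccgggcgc
SDF2L1 (chr22:21642094-21642144, plus strand, ERSE-II, 188 bases before): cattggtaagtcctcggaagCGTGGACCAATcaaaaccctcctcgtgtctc
HERPUD1 (chr16:56932005-56932055, plus strand, ERSE-II, 117 bases before): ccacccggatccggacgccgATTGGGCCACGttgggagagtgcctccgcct

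The C/EBP-ATF response element, to which ATF4 dimers bind, was searched as TGATGNAA on either strand. It was found in 4 matched members (CEBPG, CHAC1, ASNS and HERPUD1), 11.1%, against 4.46% of all genes. The unfolded protein response element TGACGTGG, which read backwards begins with the CCACG of the ERSE, was found in 1 member, ALDH18A1 (2.78%, against 0.927%). The windows of the ATF4-arm genes are shown because ASNS and CHAC1 are classical ATF4 targets whose values follow. A match is a description of these letters and not of a bound site.
ASNS (chr7:97872449-97872496, minus strand, motif 68 bases before the start): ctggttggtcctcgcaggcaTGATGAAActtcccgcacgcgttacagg
CHAC1 (chr15:40953242-40953289, plus strand, 209 bases before, opposite strand): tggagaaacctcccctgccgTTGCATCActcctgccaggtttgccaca
CEBPG (chr19:33374051-33374098, plus strand, 42 bases before): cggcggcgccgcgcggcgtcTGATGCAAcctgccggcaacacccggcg

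After 48 h in culture or 10 doses in mice more members of the ER folding arm fell than rose in each of 5 comparisons of drug with vehicle, by 12 to 3 in Colo800 and 12 to 0 in H3122. The split was narrowest in A375 culture. There the decreases of HSP90B1, PDIA4 and PDIA6 did not pass with quantile normalisation (limma adjusted p = 0.179, 0.0690 and 0.0826). Decreases of EDEM1 and MANF and increases of DNAJC3 and SEL1L passed there in every alternative run. The ATF4 arm held changes in both directions, with NUPR1, DDIT3 and SESN2 among the increases and MTHFD2, TRIB3 and enzymes of serine synthesis among the decreases. The 5 comparisons share no library. A gene was called where limma's moderated test on log2(normalised reads + 1) gave an adjusted p under 0.05 (Benjamini-Hochberg, over all genes of the table with a mean of at least 10). In Colo800, 9 members rose and 26 fell of 42, where 36.0% of all genes tested rose and 37.3% fell. In UACC62, 9 rose and 20 fell, against 26.9% and 29.6% of all genes. In H3122, 0 rose and 25 of 40 fell, against 22.1% and 24.0%, and 0 were higher also at an unadjusted p under 0.05 and by edgeR or DESeq2, while 1 rose with quantile normalisation. In A375 tumours 12 rose and 18 fell, against 34.2% and 34.0%. In A375 culture at 48 h 4 rose and 13 fell, against 24.3% and 25.6%, so that the share that fell was close to the background there. With quantile normalisation the split was 6 and 9. With the replicate number as a block in the fit PSAT1, PYCR1, SDF2L1 and XBP1 also fell there and ALDH18A1 also rose. For UACC62, leaving out the first vehicle library lowered the calls to 3 higher and 16 lower.

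**Figure D1:**
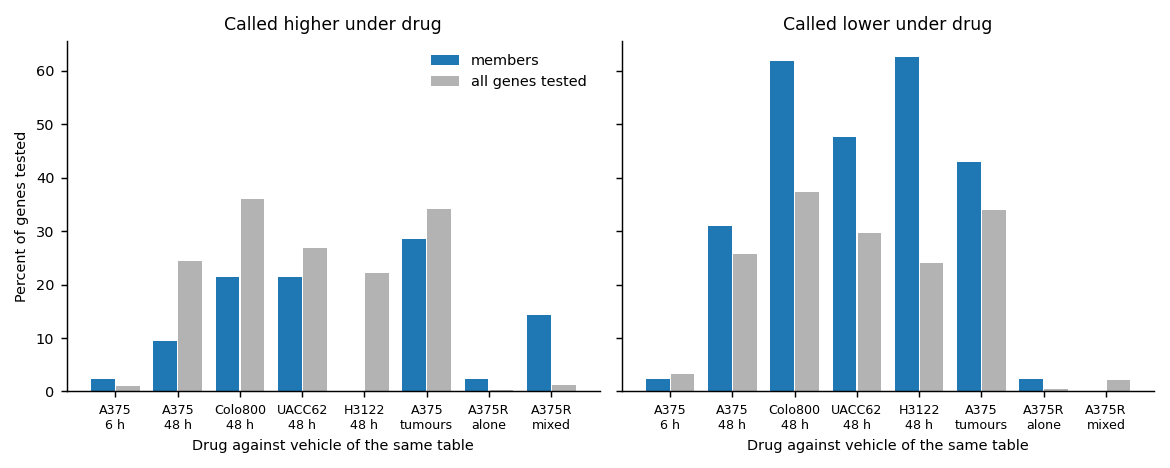
Percent of the 42 members (40 in H3122) and of all genes tested that were called higher or lower, for each comparison (y axis, percent; limma, adjusted p under 0.05). In H3122 no member was called higher and 25 of 40 were called lower, against 24.0% of all genes.

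By arm, the median log2 change of the 16 ER folding members was -0.88 in Colo800, -0.47 in UACC62, -0.40 in H3122, -0.35 in A375 tumours and -0.10 in A375 culture at 48 h, with the median over all genes within 0.01 of 0 in each. Members of this arm that rose and fell numbered 3 and 12 in Colo800, 3 and 10 in UACC62, 0 and 12 in H3122, 3 and 9 in A375 tumours, and 2 and 5 in A375 culture. The 22 ATF4-arm members had medians of -0.21, -0.27, -0.40 (20 members), 0.10 and -0.40 in the same order. Those that rose and fell numbered 6 and 11, 5 and 10, 0 and 13, 9 and 6, and 2 and 8. Of all genes 36.0%, 26.9%, 22.1%, 34.2% and 24.3% rose in that order, and 37.3%, 29.6%, 24.0%, 34.0% and 25.6% fell. Decreases of the ATF4 arm in A375 tumours were not above that share, and those of the ER folding arm in A375 culture were close to it. The 9 genes with an ERSE or ERSE-II had a median of -0.94 in Colo800, where 8 fell and HERPUD1 rose. Their median was -0.61 in UACC62 (0 rose, 6 fell), -0.39 in H3122 (0 rose, 6 fell) and -0.38 in A375 tumours (1 rose, 6 fell). In A375 culture it was -0.11 (0 rose, 2 fell), and the decreases there were not above the share of all genes.

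**Figure D2:**
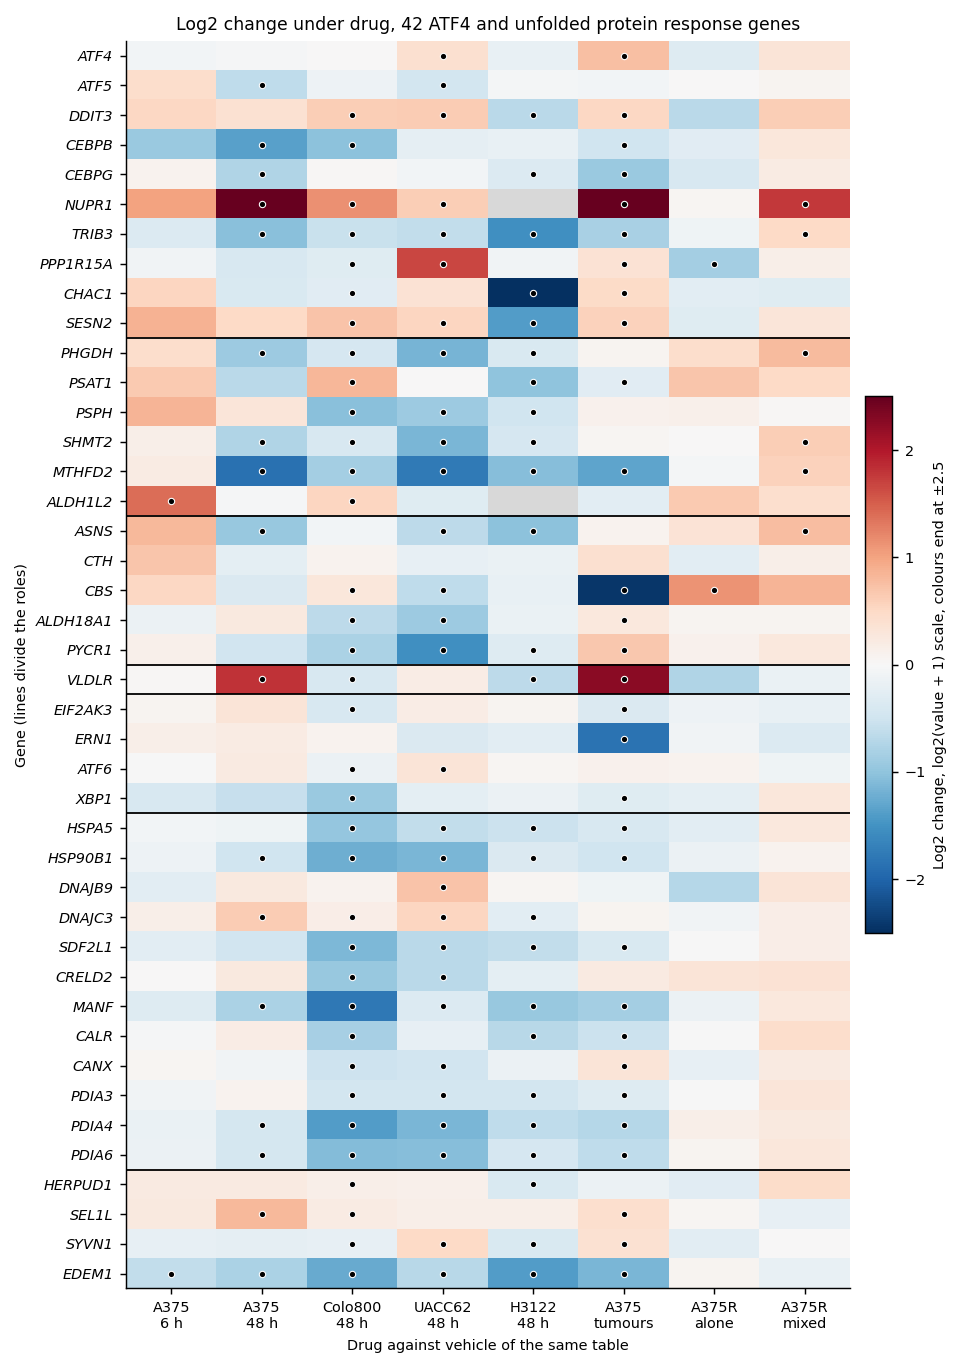
Log2 change of each of the 42 members (rows, ordered by role) under drug against vehicle in 8 comparisons (columns), blue lower and red higher, with colours ending at 2.5 in either direction. A dot marks an adjusted p under 0.05 and grey a gene below the filter. EDEM1, HSP90B1, MANF, MTHFD2, PDIA4, PDIA6 and TRIB3 are blue with a dot in all 5 of A375 at 48 h, Colo800, UACC62, H3122 and A375 tumours.

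Of the 40 members tested in all 5 tables, 7 fell in every one of these comparisons: EDEM1, HSP90B1, MANF, MTHFD2, PDIA4, PDIA6 and TRIB3. Among all 11665 genes tested in the 5, 905 fell in every one, 7.76%. No member rose in all 5, where 518 genes, 4.44%, did. EDEM1, which draws misfolded glycoproteins out of the folding cycle for degradation, had 3733 and 3261 normalised reads in H3122 under vehicle and 1313 and 1339.7 under crizotinib. In A375 tumours it had 2594, 2468, 2638 and 2418 under vehicle and 1107, 1223, 1099.6 and 1135 under vemurafenib. In both settings every drug library was below every vehicle library, with log2 changes of -1.39 ± 0.09 (SE), adjusted p = 2.36e-07 in H3122 and -1.15 ± 0.07 (SE), adjusted p = 2.89e-10 in the tumours by limma. In Colo800 EDEM1 went from 3775 and 3820.5 to 1584 and 1587 (log2 -1.26 ± 0.04 (SE), adjusted p = 4.41e-15, limma). In UACC62 it went from 2114 and 2078 to 1143 and 1482, again without overlap (log2 -0.69 ± 0.13 (SE), adjusted p = 0.00182, limma).

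MTHFD2, the mitochondrial enzyme of the folate cycle and an ATF4 target, had 2281, 1324 and 1511 normalised reads in A375 culture under vehicle and 433, 464 and 470.4 at 48 h. In A375 tumours it had 1488, 1520.5, 1457 and 1375 under vehicle and 558, 599, 626 and 568 under drug. The drug libraries of both settings lay below all vehicle libraries, and the log2 changes were -1.86 ± 0.30 and -1.31 ± 0.07 (SE; limma adjusted p = 0.000505 and 1.09e-10). In UACC62 MTHFD2 went from 2577 and 2696 to 739 and 809 (log2 -1.77 ± 0.10 (SE), adjusted p = 1.48e-06, limma). H3122 went from 4223 and 4096 to 1978 and 2023 (log2 -1.06 ± 0.08 (SE), adjusted p = 9.41e-07, limma), and Colo800 from 2655 and 2726 to 1412 and 1563 (log2 -0.86 ± 0.05 (SE), adjusted p = 2.09e-11, limma). TRIB3, a pseudokinase that binds AKT and damps ATF4 and CHOP activity, fell to 409.8 and 445 normalised reads in H3122 from 1158 and 1312 (log2 -1.53 ± 0.10 (SE), adjusted p = 2.64e-07, limma). In A375 tumours TRIB3 went from 1243, 1261, 1191 and 1259 to 613, 736, 709.5 and 769 (log2 -0.81 ± 0.08 (SE), adjusted p = 1.29e-07, limma). In A375 culture it went from 867, 944 and 1199 to 453, 516 and 479, a log2 change of -1.04 ± 0.35 (SE), adjusted p = 0.0273 by limma. That last call was lost on leaving out any of 5 of the 6 libraries (all but the first vehicle library), with adjusted p up to 0.0844.

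**Figure D3:**
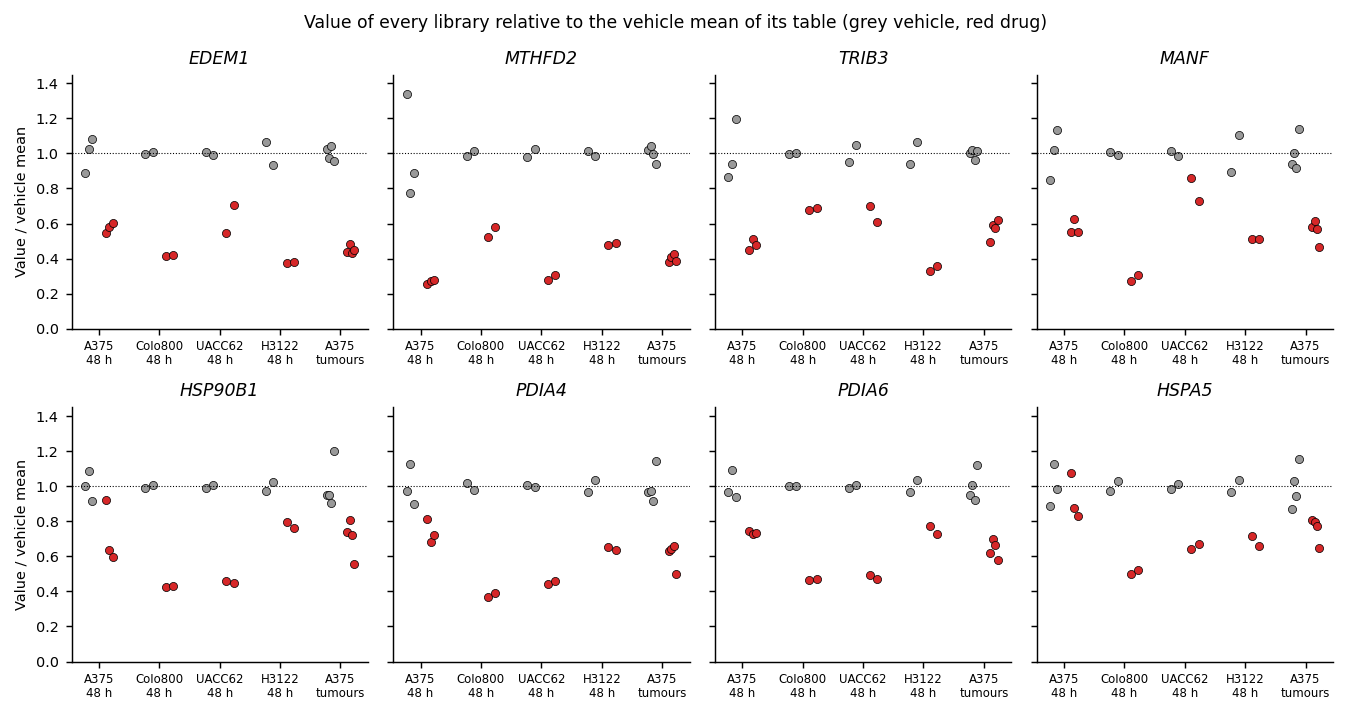
Normalised reads of 8 members in each library divided by the mean of the vehicle libraries of its table (y axis, ratio), for 5 comparisons of drug with vehicle (x axis). Grey points are vehicle libraries and red points are drug libraries; EDEM1 and MTHFD2 show every drug library below every vehicle library in all 5, and HSP90B1 and HSPA5 overlap in A375 culture.

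MANF, a small secreted ER protein that helps keep HSPA5 bound to its clients, had 1358 and 1331 normalised reads in Colo800 under vehicle and 367 and 413 under drug. Its log2 change there, -1.79 ± 0.06 (SE), adjusted p = 1.54e-14 by limma, was the largest decrease of any member in that line. In A375 tumours MANF went from 1706, 1813, 1657 and 2067 to 1053, 1112, 1032 and 840.1 (log2 -0.85 ± 0.09 (SE), adjusted p = 5.38e-07, limma). In UACC62 it went from 1038 and 1006 to 878 and 743 (log2 -0.34 ± 0.11 (SE), adjusted p = 0.0304, limma), a call that leaving out either vehicle library ended (adjusted p up to 0.285). HSP90B1 (GRP94), the ER member of the HSP90 family, had 48307 and 49134 normalised reads in UACC62 under vehicle and 22460.3 and 21776 under drug. In Colo800 it had 22899 and 23338 and 9802 and 9945. The log2 changes were -1.14 ± 0.08 and -1.23 ± 0.04 (SE; limma adjusted p = 7.10e-06 and 3.13e-15), and the groups were far apart in both lines. In A375 culture, where HSP90B1 had 12099.5, 13101 and 11036 under vehicle and 11122, 7712 and 7219.7 at 48 h, the groups overlapped and the change was -0.50 ± 0.18 (SE), adjusted p = 0.0353 by limma. That call was lost without any 1 of 4 libraries (vehicle 1 and 2, 48 h 2 and 3; adjusted p up to 0.138), with quantile normalisation (0.179) and by edgeR (0.0573), and the H3122 call (log2 -0.36) without either crizotinib library (up to 0.132).

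The disulphide isomerases PDIA4 and PDIA6, which form and reshuffle disulphide bonds in the ER, fell in all 5 comparisons. PDIA4 went from 8005 and 7702 normalised reads to 2879 and 3060.1 in Colo800 (log2 -1.40 ± 0.04 (SE), adjusted p = 1.28e-15, limma). In UACC62 PDIA4 went from 11159 and 11020.4 to 4892 and 5121 (log2 -1.15 ± 0.08 (SE), adjusted p = 7.93e-06, limma). PDIA6 changed by -1.09 and -1.06 in these lines on the log2 scale, and by -0.64 in A375 tumours, with adjusted p of 1.34e-14, 1.19e-05 and 2.63e-06 by limma. In A375 culture both fell by smaller amounts, PDIA4 by -0.43 ± 0.12 and PDIA6 by -0.44 ± 0.10 as signed log2 changes (SE), and with quantile normalisation neither passed (limma adjusted p = 0.0690 and 0.0826). The PDIA6 call in H3122 (log2 -0.42) was lost without the second crizotinib library (0.0681).

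HSPA5 (BiP), the HSP70 chaperone of the ER lumen that holds the sensors inactive, fell in 4 of the 5 settings. Colo800 had 17587 and 18598 normalised reads under vehicle and 9002 and 9406 under drug. UACC62 had 19693 and 20283 and 12785 and 13399. H3122 had 10638 and 11392 and 7889 and 7262. None of these groups overlapped, and the log2 changes were -0.97 ± 0.04, -0.61 ± 0.08 and -0.54 ± 0.09 (SE; limma adjusted p = 2.76e-13, 0.000321 and 0.0004). In A375 tumours HSPA5 had 2179, 2587, 2368 and 2894 under vehicle and 2029.7, 1993, 1935 and 1618 under vemurafenib (log2 -0.40 ± 0.09 (SE), adjusted p = 0.00112, limma). In A375 culture the libraries overlapped, with 7874, 9969.8 and 8735 under vehicle and 9529, 7760.3 and 7352 at 48 h (log2 -0.11 ± 0.16 (SE), adjusted p = 0.593, limma).

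Of the other folding proteins, SDF2L1, part of a chaperone complex with HSPA5, went from 602 and 678 normalised reads to 274 and 313 in Colo800 (log2 -1.12 ± 0.08 (SE), adjusted p = 6.56e-10, limma). It also fell in UACC62 (-0.67), H3122 (-0.61) and A375 tumours (-0.38). PDIA3, the isomerase that works with the lectin chaperones, fell in the same 4 by -0.45, -0.46, -0.45 and -0.32 as signed log2 changes. Its call in UACC62 was lost without either vehicle library (adjusted p up to 0.0941), and in the tumours without the fourth vehicle or the fourth vemurafenib library (up to 0.103). CALR, the soluble calcium-binding lectin chaperone, fell in Colo800, H3122 and A375 tumours, with log2 changes of -0.83 ± 0.04, -0.69 ± 0.10 and -0.54 ± 0.10 (SE), and did not pass in UACC62 (-0.21) or A375 culture (0.18). CANX, its membrane-bound counterpart, fell in Colo800 and UACC62 (the latter lost without either vehicle library, adjusted p up to 0.0572) but rose in A375 tumours. The UACC62 call also ended with quantile normalisation (0.0834). In the tumours CANX had 4717, 4626, 4833 and 5093 normalised reads under vehicle and 5883, 6507, 6182 and 5662 under drug, with no overlap (log2 0.33 ± 0.07 (SE), adjusted p = 0.000559, limma). CRELD2, a secreted ER stress protein, fell in Colo800 and UACC62 (log2 -0.94 and -0.67) and did not pass in the other 3. DNAJC3 (p58IPK), a co-chaperone of HSPA5 and inhibitor of eIF2 alpha kinases, went the other way in all melanoma cultures. It had 955, 1188 and 1104 normalised reads in A375 culture under vehicle and 1750.0, 1576 and 1705 at 48 h (log2 0.64 ± 0.13 (SE), adjusted p = 0.00175, limma). DNAJC3 also rose in UACC62 (0.53) and Colo800 (0.16) and fell in H3122 (-0.26), calls that ended without the first vehicle library in UACC62, without the first drug library in Colo800 and without any of 3 of the 4 H3122 libraries (all but the second vehicle library; adjusted p up to 0.182). The H3122 call also ended with no filter on low values, with quantile normalisation and by DESeq2 (up to 0.165). DNAJB9 (ERdj4), a co-chaperone that keeps IRE1 inactive, rose in UACC62 from 242 and 306 to 415 and 479 (log2 0.71 ± 0.15 (SE), adjusted p = 0.00327, limma), not passing without the first vehicle library (0.0582).

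In ER-associated degradation SEL1L, the adaptor of the HRD1 complex, did not follow EDEM1. SYVN1, the ubiquitin ligase of that complex, fell with EDEM1 in 2 settings and rose in 2. SEL1L had 979, 958 and 838 normalised reads in A375 culture under vehicle and 1915, 1348 and 1659 at 48 h. In A375 tumours it had 627, 611, 557 and 616 and 804, 886, 811 and 733. All drug libraries were above all vehicle libraries in both, with log2 changes of 0.81 ± 0.13 (SE), adjusted p = 0.000602 and 0.42 ± 0.08 (SE), adjusted p = 0.000192 by limma. SEL1L also rose in Colo800 (log2 0.21). SYVN1 rose in UACC62 (0.51) and A375 tumours (0.38) and fell in Colo800 (-0.21) and H3122 (-0.37), of which the 3 culture calls each ended without 1 library (vehicle 1, drug 1 and crizotinib 2, adjusted p up to 0.128), the Colo800 call also with quantile normalisation or DESeq2 (up to 0.0610). HERPUD1, which recruits ubiquilins to that complex, fell in H3122 (-0.39) and rose by a small amount in Colo800 (0.15), where the call ended without the first vehicle or the second drug library (up to 0.504). The Colo800 call also ended with no filter or by DESeq2 (up to 0.147), and the H3122 call without the second crizotinib library (0.0590).

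Of the 4 sensors 3 fell in Colo800 and 3 in A375 tumours, where 37.3% and 34.0% of all genes fell, 1 rose in UACC62, and 0 were called in H3122 or A375 culture by limma, edgeR or DESeq2 or at an unadjusted limma p under 0.05. With the replicate number as a block, or with the 2 groups fitted alone, 1 fell in A375 culture. XBP1 had 2838 and 2799 normalised reads in Colo800 under vehicle and 1411 and 1568 under drug (log2 -0.92 ± 0.05 (SE), adjusted p = 7.12e-12, limma). In A375 tumours XBP1 went from 512, 584, 613 and 595 to 482, 470.1, 478 and 445 (log2 -0.29 ± 0.08 (SE), adjusted p = 0.00463, limma). These groups were separate. In A375 culture XBP1 had 627, 853 and 866 under vehicle and 525, 487 and 546 at 48 h (log2 -0.57 ± 0.28 (SE), adjusted p = 0.105, limma). It passed there with the replicate number as a block (limma adjusted p = 0.0267). UACC62 had 1416 and 1558 and 1331 and 1173, and H3122 had 4086 and 4416 and 3965 and 3746, neither passing. In these 3 settings too every drug library lay below every vehicle library. XBP1 passed in 2 of 12 alternative runs in UACC62 and in 1 of 13 in H3122. EIF2AK3 fell in Colo800 (-0.39) and A375 tumours (-0.37). ERN1 fell in A375 tumours, from 54.5, 51.7, 57.0 and 43.7 to 8.07, 19.3, 11.8 and 18.7 normalised reads, a low level on which the log2 change was -1.84 ± 0.26 (SE), adjusted p = 9.10e-06 by limma. ATF6 differed little in any setting (log2 from -0.14 in Colo800 to 0.32 in UACC62, both called), and these calls ended without 2 of the 4 libraries each (in Colo800 the first vehicle and the second drug library, in UACC62 either vehicle library; adjusted p up to 0.316). The Colo800 call also ended with quantile normalisation (0.713) or DESeq2 (0.0531).

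ATF4 itself was higher in A375 tumours under vemurafenib. Its RNA had 5901, 6822, 6782 and 7008 normalised reads under vehicle and 11846, 11267, 11075 and 10404 under drug. The groups were far apart, and the log2 change was 0.75 ± 0.08 (SE), adjusted p = 2.11e-07 by limma. In UACC62 ATF4 went from 3589 and 3569.7 to 5110.1 and 4397 (log2 0.41 ± 0.10 (SE), adjusted p = 0.00777, limma), a call lost without either vehicle library (up to 0.136). Colo800 had 7049 and 7086 and 7057 and 7183. H3122 had 7939 and 9432 and 7999 and 7162. A375 culture had 3528, 3554 and 3939.6 under vehicle and 4304, 3495 and 3126 at 48 h, and in these 3 settings the log2 changes of 0.01 ± 0.04, -0.19 ± 0.10 and -0.02 ± 0.20 (SE) did not pass.

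DDIT3, the pro-apoptotic factor CHOP, rose in 3 settings and fell in H3122. In Colo800 it had 1224 and 1162 normalised reads under vehicle and 1762 and 1871 under drug. In UACC62 it had 585 and 666 and 1043 and 893. In A375 tumours it had 282, 252, 288 and 279 and 388, 389, 452 and 362. The drug libraries were the higher ones in all 3, with log2 changes of 0.61 ± 0.05, 0.63 ± 0.12 and 0.53 ± 0.09 (SE; limma adjusted p = 3.02e-09, 0.0022 and 0.000106), and the UACC62 call ended without the first vehicle library (0.0521). H3122 had 358 and 423 under vehicle and 251 and 234 under crizotinib (log2 -0.68 ± 0.12 (SE), adjusted p = 0.000687, limma). A375 culture overlapped, with 276, 227 and 403 and 395, 410.0 and 342 (log2 0.38 ± 0.29 (SE), adjusted p = 0.297, limma). SESN2, a leucine-binding inhibitor of mTORC1, had the same pattern of calls as DDIT3. It went from 803 and 709.7 to 1201 and 1292 in Colo800 (log2 0.72 ± 0.06 (SE), adjusted p = 6.09e-09, limma). In UACC62 SESN2 went from 467 and 456 to 702 and 645 (log2 0.54; lost without the second vehicle library, 0.0593). In A375 tumours it had 99.4, 90.8, 81.9 and 154 and 118, 151, 189.9 and 172, where the vehicle library with the highest value overlapped the drug group (log2 0.58 ± 0.18 (SE), adjusted p = 0.00987, limma). In H3122 SESN2 fell from 538 and 549 to 207 and 205 (log2 -1.39 ± 0.10 (SE), adjusted p = 9.36e-07, limma).

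NUPR1, a small chromatin-binding stress protein, rose in all 4 of these settings in which it was tested. In Colo800 it had 876 and 934 normalised reads under vehicle and 1962 and 2053 under drug. UACC62 had 523 and 513 and 886 and 708. A375 tumours had 11.2, 7.83, 4.07 and 2.91 and 70.6, 60.9, 64.4 and 67.5. No groups overlapped, and the log2 changes were 1.15 ± 0.05, 0.61 ± 0.13 and 3.30 ± 0.31 (SE; limma adjusted p = 3.11e-13, 0.0034 and 9.05e-08). In A375 culture NUPR1 was low, with 4.20, 2.17 and 13.2 under vehicle and 23.2, 66.1 and 70.7 at 48 h (log2 2.99 ± 0.85 (SE), adjusted p = 0.0133, limma), and the call was lost without the second vehicle library (0.0552). PPP1R15A (GADD34), the phosphatase subunit that restores eIF2 alpha, rose most in UACC62, from 701 and 715 to 2372 and 2170.0 (log2 1.68 ± 0.10 (SE), adjusted p = 1.96e-06, limma). It also rose in A375 tumours (0.36) and fell in Colo800 (-0.31). CHAC1, which breaks down glutathione, fell in H3122 from 529 and 679 to 92.6 and 84.1. That log2 change of -2.75 ± 0.14 (SE), adjusted p = 3.96e-08 by limma was the largest decrease of any member there. CHAC1 rose in A375 tumours (0.48), and its decrease in Colo800 (-0.28) did not pass without the second vehicle or the first drug library (up to 0.137), with no filter (0.0655) or with quantile normalisation (0.0527).

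The C/EBP partners of ATF4 fell where they changed. CEBPB had 660.2, 683 and 944 normalised reads in A375 culture under vehicle and 262, 303 and 313 at 48 h (log2 -1.36 ± 0.26 (SE), adjusted p = 0.00135, limma). It also fell in Colo800 (-1.02) and A375 tumours (-0.49). CEBPG, the partner that forms heterodimers with ATF4 on amino acid genes, had 792, 750.0, 731 and 744 in A375 tumours under vehicle and 422, 361, 425 and 387 under drug, well separated (log2 -0.92 ± 0.08 (SE), adjusted p = 3.46e-08, limma). It fell also in A375 culture (-0.75) and H3122 (-0.33), calls lost without any 1 of 4 A375 libraries (vehicle 2 and 3, 48 h 2 and 3; up to 0.0748) or without the first crizotinib library (0.185). ATF5, another factor translated under eIF2 alpha phosphorylation, fell in A375 culture (-0.64) and UACC62 (-0.47), and both calls ended without 1 of several libraries (in A375 culture vehicle 1, vehicle 3 or 48 h 1; in UACC62 either vehicle library; adjusted p up to 0.153).

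Serine and one-carbon enzymes gave more decreases than increases. Of 6 in this group 4 fell and 2 rose in Colo800, 4 fell in UACC62, 5 of 5 fell in H3122, 3 fell in A375 culture and 2 fell in A375 tumours, with no increase in the last 4. Of all genes 36.0% rose in Colo800, and 37.3%, 29.6%, 24.0%, 25.6% and 34.0% fell in the 5 settings in that order, so that the 2 of 6 in A375 tumours were close to the background. PHGDH, the first enzyme of serine synthesis, had 2062 and 2068 normalised reads in UACC62 under vehicle and 999 and 848 under drug. In A375 culture it had 2027, 1464 and 1802 and 786, 995 and 1032. These groups were separate, with log2 changes of -1.16 ± 0.11 and -0.91 ± 0.21 (SE; limma adjusted p = 3.16e-05 and 0.0047). PHGDH also fell in Colo800 (-0.41) and H3122 (-0.38; lost without the second crizotinib library, 0.0570, or with no filter, 0.0515), and did not pass in A375 tumours (0.06). PSAT1, the second enzyme, rose in Colo800 from 4025 and 4087 to 7027 and 7301 (log2 0.82 ± 0.04 (SE), adjusted p = 1.38e-12, limma). In H3122 PSAT1 went the other way, from 2589.9 and 2712 to 1347 and 1291 (log2 -1.01 ± 0.08 (SE), adjusted p = 1.84e-06, limma). Its small decrease in A375 tumours (-0.27) was lost without the second vehicle or the third drug library (up to 0.0727). PSPH, the last step, fell in Colo800 (-1.05), UACC62 (-0.91) and H3122 (-0.49). SHMT2, the mitochondrial enzyme that splits serine, fell in all 4 cultures, by -0.76, -0.41, -1.13 and -0.42 (log2, A375, Colo800, UACC62, H3122), and had a log2 change of 0.06 ± 0.08 (SE) in A375 tumours, which did not pass. ALDH1L2, a mitochondrial enzyme of folate oxidation, rose in Colo800 from 83.4 and 64.0 to 112 and 99.7 (log2 0.53 ± 0.17 (SE), adjusted p = 0.00845, limma), a call that ended without the second vehicle or the first drug library (up to 0.115) or by DESeq2 (0.0760).

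ASNS, asparagine synthetase, fell in 3 cultures. In H3122 it had 2054 and 2329.8 normalised reads under vehicle and 1099.6 and 1040.2 under crizotinib. UACC62 had 1629 and 1831 and 1146 and 1045. A375 culture had 1045, 549.9 and 779 and 354, 391 and 449. All drug libraries were lower than all vehicle libraries in these 3, with log2 changes of -1.03 ± 0.09, -0.66 ± 0.11 and -0.95 ± 0.34 (SE; limma adjusted p = 3.46e-06, 0.000789 and 0.0395). The A375 call was lost without any of 5 of the 6 libraries (all but the second vehicle library) or with quantile normalisation (up to 0.135). ASNS did not pass in Colo800, with 3038 and 3220.4 and 2846 and 3091, or in A375 tumours, with 159, 168, 151 and 183 and 169.6, 184, 188 and 160.2, where the groups overlapped. PYCR1, the last enzyme of proline synthesis, had 1843 and 1836 in UACC62 under vehicle and 704 and 577 under drug (log2 -1.53 ± 0.12 (SE), adjusted p = 1.02e-05, limma). In A375 tumours PYCR1 rose from 438, 404, 380.2 and 412 to 592, 706, 637 and 670.3 (log2 0.67 ± 0.08 (SE), adjusted p = 2.21e-06, limma). It fell also in Colo800 (-0.79) and H3122 (-0.32; lost without either crizotinib library, up to 0.115, or with quantile normalisation, 0.0834). ALDH18A1, the enzyme before it in that pathway, fell in Colo800 (-0.66) and UACC62 (-0.90) and rose in A375 tumours (0.26). CBS, which makes cystathionine from homocysteine and serine, fell in A375 tumours from 73.8, 56.4, 77.9 and 88.8 to 12.1, 16.2, 7.06 and 18.7 (log2 -2.43 ± 0.26 (SE), adjusted p = 4.22e-07, limma), fell in UACC62 (-0.63) and rose in Colo800 (0.28). CTH, the next enzyme towards cysteine, passed in none of the 5 (log2 0.10, -0.21, -0.16, 0.40 and -0.24, in the order Colo800, UACC62, H3122, A375 tumours and A375 culture).

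VLDLR, a lipoprotein receptor raised by ATF4 under ER stress, rose in A375 cells in both settings. In culture it had 74.5, 98.7 and 98.8 normalised reads under vehicle and 224, 362 and 399 at 48 h. In tumours it had 117, 116, 76.3 and 111 and 460.2, 596, 538 and 414. The groups did not overlap, and the log2 changes were 1.81 ± 0.32 (SE), adjusted p = 0.000983 and 2.25 ± 0.14 (SE), adjusted p = 6.44e-10 by limma. In Colo800 VLDLR fell from 1585 and 1537 to 1224 and 1147 (log2 -0.40 ± 0.05 (SE), adjusted p = 9.79e-07, limma). VLDLR fell also in H3122 (-0.65; not passing by DESeq2, 0.0641), and UACC62 did not pass (0.18).

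Vemurafenib for 6 h changed few of these genes in A375 cells: of 42 members 1 rose and 1 fell, where 1.07% of all genes rose and 3.33% fell. EDEM1 already had 1487, 1534 and 1789 normalised reads at 6 h, against 2195, 2531 and 2677 under vehicle and 1353, 1436 and 1495 at 48 h. Both drug groups lay below all vehicle libraries, with log2 changes of -0.62 ± 0.12 (SE), adjusted p = 0.0126 at 6 h and -0.78 ± 0.12 (SE), adjusted p = 0.000301 at 48 h by limma. ALDH1L2 had 443, 345 and 883 at 6 h and 257, 216 and 129.8 under vehicle, separate groups (log2 1.40 ± 0.35 (SE), adjusted p = 0.048, limma). Both 6 h calls depended on single libraries: ALDH1L2 was lost without vehicle 2 or 3 or 6 h replicate 1 or 3 (adjusted p up to 0.154), and also with no filter or with the 2 groups alone (up to 0.0875), and EDEM1 without vehicle 2 or 3 or 6 h replicate 2 (up to 0.0674), so that 0 members passed without vehicle 2 or vehicle 3 and 1 without 6 h replicate 1 or 2. With the replicate number as a block (same-numbered libraries of these 2 groups deviated together, with correlations of 0.310 to 0.567), 4 members passed: ALDH1L2 and PSPH (log2 0.85, limma adjusted p = 0.0470) rose, EDEM1 and CEBPB (log2 -0.93, adjusted p = 0.00434) fell.

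The third 6 h library held the highest value of the 9 A375 culture libraries for 18 of the 22 ATF4-arm members, 81.8%, against 1 of 16 in the ER folding arm, 6.25%, and 7.12% of all 13816 genes. CHAC1 showed it most plainly, with 18.7, 31.2 and 325 normalised reads at 6 h, 25.2, 31.5 and 80.0 under vehicle and 24.8, 35.1 and 32.0 at 48 h. ASNS had 929.6, 1044 and 2534 at 6 h. ATF4 had 2985, 2829.6 and 5016, DDIT3 had 296, 366 and 673, XBP1 had 379, 557 and 965 and HSPA5 had 6749.8, 9300.4 and 9563. The third value stands above the other 2 for CHAC1, ASNS, ATF4, DDIT3 and XBP1 and is close to the second for HSPA5. The median log2 change of the ATF4 arm at 6 h was 0.44 with this library and 0.02 without it, when 11 of 22 were positive. Without it 3 members passed, all lower: CEBPB (log2 -1.25, limma adjusted p = 0.00671), TRIB3 (-0.85, 0.0204) and EDEM1 (-0.70, 0.0155).

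**Figure D4:**
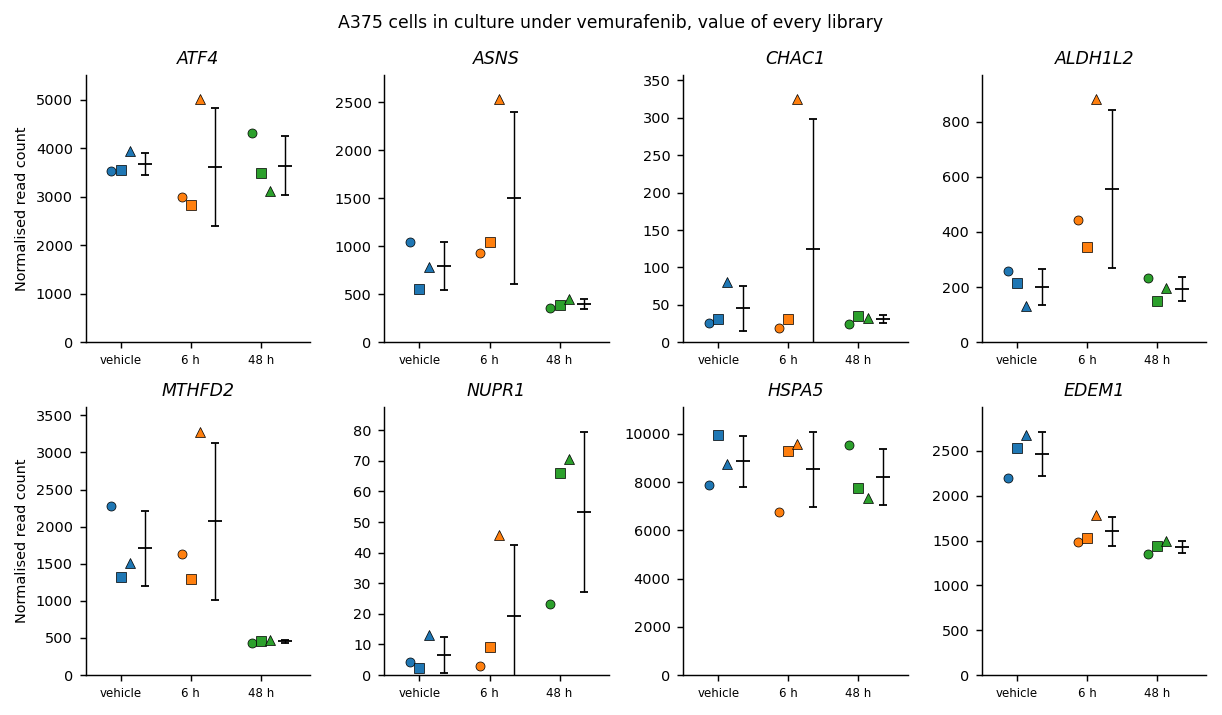
Normalised reads (y axes) of 8 members in the 9 A375 culture libraries under vehicle and at 6 h and 48 h of vemurafenib. Circles, squares and triangles are replicates 1, 2 and 3, and black bars are the mean ± SD, ended at 0 where they would pass it. The triangle at 6 h is the highest point for ATF4, ASNS, CHAC1, ALDH1L2 and MTHFD2, and EDEM1 is lower in all 6 drug libraries than in all 3 vehicle libraries.

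Between 6 h and 48 h 4 members rose and 12 fell, where 19.6% of all genes rose and 19.7% fell. This comparison shares the 48 h libraries with the one against vehicle. Amino acid enzymes made up most of the decreases: 5 of 6 serine and one-carbon enzymes and 3 of 5 others. MTHFD2 had 1637, 1294 and 3279 normalised reads at 6 h and 433, 464 and 470.4 at 48 h (log2 -2.06 ± 0.30 (SE), adjusted p = 0.000428, limma). ASNS went from 929.6, 1044 and 2534 to 354, 391 and 449 (log2 -1.77 ± 0.34 (SE), adjusted p = 0.00233, limma). PSAT1 went from 2306, 1893 and 4739 to 1063, 1092 and 1129 (log2 -1.33 ± 0.29 (SE), adjusted p = 0.00498, limma). The 48 h libraries were lower than every 6 h library for these 3 genes. PHGDH had 1981, 1995 and 3387 at 6 h and 786, 995 and 1032 at 48 h (log2 -1.35), and ALDH1L2 had 443, 345 and 883 and 233, 149 and 198 (log2 -1.43), again without overlap. The 4 increases were those of VLDLR, with 101, 54.9 and 137 at 6 h (log2 1.79), SEL1L, with 1124, 1081 and 1063 (0.58), DNAJC3, with 1034, 1299.5 and 1242 (0.50), and ALDH18A1, with 1674, 1696 and 1648 at 6 h and 2067, 2318 and 2211 at 48 h (0.39). With the replicate block 6 rose and 16 fell, NUPR1 and DNAJB9 added to the increases and TRIB3, CTH, CEBPB and HSP90B1 to the decreases. Without the third 6 h library 5 rose and 9 fell. The log2 changes of MTHFD2, ASNS, PSAT1, PHGDH and ALDH1L2 were then -1.67, -1.31, -0.93, -1.09 and -1.04, all still called, while MANF, PDIA6 and PYCR1 no longer passed (limma adjusted p = 0.0716, 0.0505 and 0.0802).

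In A375R tumours grown alone vemurafenib changed 2 members. One rose, where 0.305% of all genes did, and 1 fell, where 0.487% did. CBS had 62.7, 103 and 70.3 normalised reads under vehicle and 253, 126 and 152 under drug (log2 1.13 ± 0.25 (SE), adjusted p = 0.0483, limma), and PPP1R15A had 9437, 8781 and 9529 and 4950.2, 5276 and 5137 (log2 -0.85 ± 0.13 (SE), adjusted p = 0.0191, limma). Both pairs of groups were separate, and both calls were lost without vehicle 1 or 3 or drug library 1 or 2 (up to 0.229 and 0.127). The CBS call also ended with no filter (0.0840), with quantile normalisation (0.0512) or by edgeR (0.0510). Without the third drug library 6 members passed. Neither ATF4, with 44554, 47213 and 46843 under vehicle and 41782, 33525 and 36191 under drug, nor HSPA5, with 4622, 7100.1 and 4699.5 and 3898, 4329 and 5340.1, passed. ASNS had 993, 1290.0 and 1057 and 1856, 1133 and 1316, and XBP1 had 2468, 3565 and 2793 and 2188, 2246 and 2951, also without passing.

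In mixed tumours 6 members rose under vemurafenib and 0 fell, where 1.24% of all genes rose and 2.23% fell, and 0 were lower at an unadjusted limma p under 0.05 or by edgeR or DESeq2. All 6 belong to the ATF4 arm. NUPR1 had 12.7, 22.7 and 33.4 normalised reads under vehicle and 77.1, 79.4 and 69.5 under drug, well separated (log2 1.77 ± 0.32 (SE), adjusted p = 0.00653, limma). SHMT2 had 5734, 7117 and 6627 and 8594, 10412 and 11074, also separated (log2 0.62 ± 0.11 (SE), adjusted p = 0.0055, limma). PHGDH had 2479.7, 3005 and 3063 and 4110.1, 5908 and 4809.9 (log2 0.78 ± 0.14 (SE), adjusted p = 0.00714, limma). ASNS had 786, 1093 and 1014 and 1463, 2104 and 1413 (log2 0.77 ± 0.18 (SE), adjusted p = 0.0296, limma). These drug libraries too were all above the vehicle libraries, as were those of MTHFD2, with 7376, 8391 and 8816 and 10658, 14617 and 11482 (log2 0.57 ± 0.14 (SE), adjusted p = 0.0313, limma), and of TRIB3 (log2 0.51 ± 0.13 (SE), adjusted p = 0.0424, limma). ATF4 itself had 35704, 42333 and 37814 under vehicle and 38669, 54003 and 53147 under drug and did not pass (log2 0.32 ± 0.14 (SE), adjusted p = 0.211, limma). DDIT3 had 1372, 1820.4 and 2001 and 2247, 2484 and 3179 (log2 0.61 ± 0.18 (SE), adjusted p = 0.0698, limma). HSPA5 had 5452, 5898 and 4286 and 5814, 7096 and 5748, and XBP1 had 2485, 2535 and 2789 and 2767, 3699 and 3082, neither passing. Over the members 35 of 42 log2 changes were positive, with a median of 0.31 in the ATF4 arm and 0.25 in the ER folding arm, against 0.01 over all genes. Leaving out the first mixed vehicle library left 2 calls and the second mixed drug library 3, with only NUPR1 and SHMT2 called on leaving out each of the 6 libraries in turn. The PHGDH call ended without that vehicle library, the ASNS call without either of them, and the calls of MTHFD2 and TRIB3 also without the third mixed drug library (adjusted p up to 0.199). MTHFD2 did not pass with the 2 groups alone (0.0654), nor did TRIB3 with the 2 groups alone, with no filter or with quantile normalisation (up to 0.0758).

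**Figure D5:**
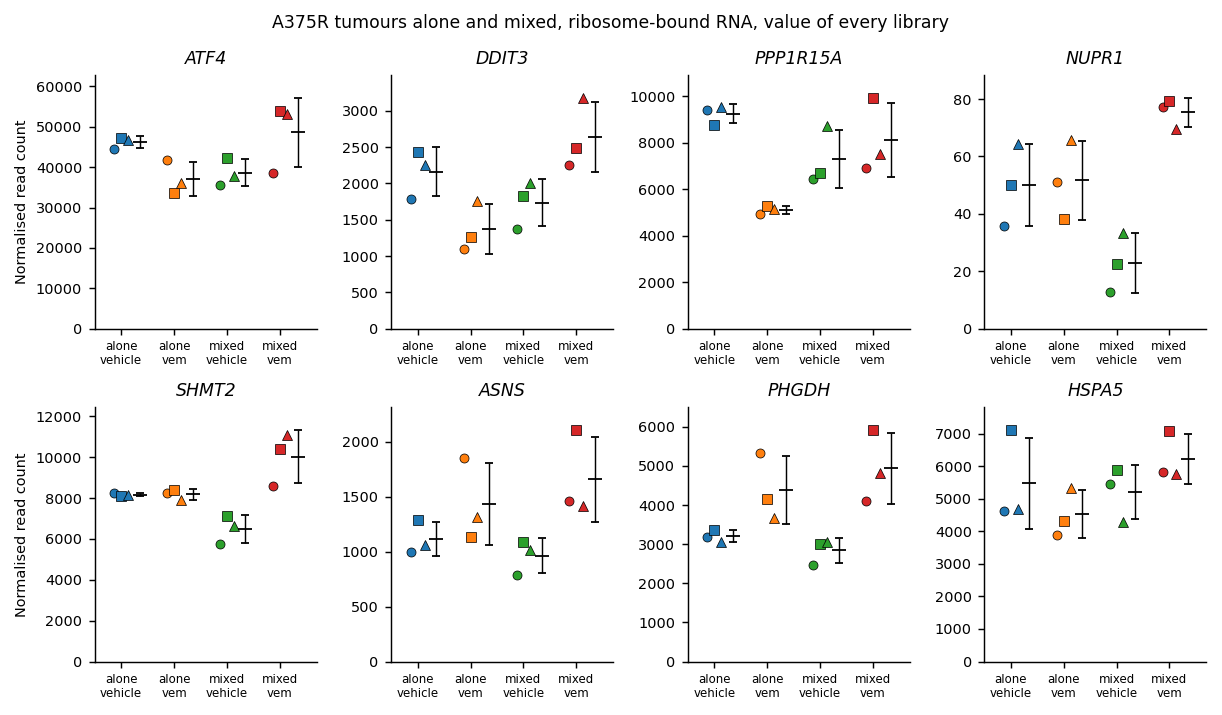
Normalised reads (y axes) of 8 members in A375R tumours, alone or mixed with A375 cells, under vehicle or vemurafenib (3 libraries a group; circles, squares and triangles are replicates 1, 2 and 3, and black bars are the mean ± SD). In mixed tumours the drug libraries of NUPR1, SHMT2, ASNS and PHGDH lie above the vehicle libraries; PPP1R15A is lower under drug in tumours grown alone.

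Under vemurafenib, DDIT3 was the 1 member that was higher in mixed tumours than in tumours grown alone, where 0.211% of all genes were higher and 0.0291% lower. It had 1095, 1257 and 1759 normalised reads in tumours grown alone and 2247, 2484 and 3179 in mixed tumours (log2 0.96 ± 0.18 (SE), adjusted p = 0.0451, limma), separate groups, and the call was lost without any 1 of 4 libraries (alone 1 and 2, mixed 2 and 3; up to 0.195), with no filter, with quantile normalisation, by edgeR and with the 2 groups alone (up to 0.0991), while 2 members passed without the first mixed library. Under vehicle, where 1.93% and 1.37% of all genes were higher and lower, 0 members were called by limma and 0 by edgeR, 2 by DESeq2 (both lower in mixed tumours), and 5 had an unadjusted limma p under 0.05. Without the third mixed vehicle library 1 member passed. DDIT3 there had 1790.0, 2437 and 2256 in tumours grown alone and 1372, 1820.4 and 2001 in mixed tumours. In tumours grown alone every DDIT3 value under vemurafenib was thus below every value under vehicle. That decrease did not pass in the main fit and passed in 4 of 15 alternative runs.

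The drug response differed between mixed tumours and tumours grown alone for 4 members, all more positive in mixed tumours, where 1.91% of all genes were more positive and 0.974% more negative. These were DDIT3 (difference of log2 changes 1.28 ± 0.25 (SE), adjusted p = 0.021, limma), NUPR1 (1.72 ± 0.45 (SE), adjusted p = 0.0495), PPP1R15A (1.01 ± 0.19 (SE), adjusted p = 0.0201) and SHMT2 (0.62 ± 0.15 (SE), adjusted p = 0.0424). For PPP1R15A and DDIT3 the difference holds a decrease in tumours grown alone, where PPP1R15A was called lower (1.81-fold) and DDIT3 did not pass. In mixed tumours NUPR1 and SHMT2 were called higher under drug, and DDIT3 and PPP1R15A were not called. This comparison uses the same 12 libraries as the preceding ones. It gave 0 calls without the first or the third vehicle library of tumours grown alone or the first mixed vehicle library, 1 without the second drug library of tumours grown alone or the third of mixed tumours, and 2 without vehicle 2 or drug 1 of tumours grown alone or drug 2 of mixed tumours. The NUPR1 call ended without any 1 of 10 of the 12 libraries (adjusted p up to 0.144), that of SHMT2 without any of 9 (0.110), of DDIT3 without any of 5 (0.0683) and of PPP1R15A without any of 3 (0.0637). NUPR1 also did not pass with a pseudocount of 0.5, no filter, a filter at a mean of 50, quantile normalisation or edgeR (up to 0.0883), nor SHMT2 with no filter or quantile normalisation (up to 0.0617). The summed level of 5 leukocyte markers, almost all of it CD68, was 7531 to 9707 normalised reads in tumours grown alone under vehicle and 3788 to 5938 under drug, and 3330 to 5001 and 5081 to 8252 in mixed tumours. That of 5 fibroblast markers was 1160 to 1437 and 2225 to 3064 in tumours grown alone, and 1086 to 1880 and 2788 to 2891 in mixed tumours. That of 8 melanocyte lineage markers was 434 to 771 and 407 to 747 in tumours grown alone, and 1029.6 to 1502 under vehicle and 612 to 758 under drug in mixed tumours. In culture, without tumour tissue, the leukocyte list also summed to 951 to 1624 normalised reads in A375 at 48 h. The fibroblast list summed to 2257 to 2556 in UACC62 under drug. Tables were normalised separately, but the lists are thus not specific to those cell types, and the sums are no measure of cell numbers. The sums moved with the groups compared here, and their part in the results was not tested.

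Other genes of the same pathways, a list of 90 from background knowledge, also gave more decreases than increases in culture and in A375 tumours. In H3122 10 of 88 tested rose and 53 fell, in Colo800 11 of 85 rose and 57 fell, in UACC62 11 of 86 rose and 43 fell, in A375 culture at 48 h 10 of 86 rose and 26 fell, and in A375 tumours 22 of 86 rose and 36 fell. Of all genes 22.1%, 36.0%, 26.9%, 24.3% and 34.2% rose in that order. The shares of all genes that fell were 24.0%, 37.3%, 29.6%, 25.6% and 34.0%, so that the list's decreases were close to the background in A375 culture. Of 12 aminoacyl-tRNA synthetases, which charge tRNAs with amino acids, 10 fell in H3122, 9 in UACC62, 8 in Colo800 (2 rose), 6 in A375 culture and 6 in A375 tumours (2 rose), to be set against the same shares of all genes. GDF15, a secreted stress cytokine, fell in Colo800 from a mean of 28443 to 1499 normalised reads (log2 -4.24) and in H3122 from 7400.1 to 1641 (-2.17), and also in UACC62 (-1.21) and A375 tumours (-2.33). SLC7A11, the cystine transporter, fell in the 4 cultures (log2 -1.63 in Colo800, -2.70 in H3122, -1.83 in A375 and -0.71 in UACC62). ATF3, a stress-induced partner of ATF4, rose in A375 culture (3.01), Colo800 (2.25), UACC62 (3.20) and A375 tumours (2.62) and fell in H3122 (-1.70). OS9, a lectin of ER-associated degradation, rose in A375 culture (1.17), Colo800 (0.91), UACC62 (0.85) and A375 tumours (1.15). In mixed A375R tumours 10 of 87 rose and 1 fell, where 1.24% of all genes rose and 2.23% fell. Among the increases were SARS, the seryl-tRNA synthetase (0.65, limma adjusted p = 0.00653), the glycine transporter SLC6A9 (0.86, 0.0121) and the disulphide isomerase P4HB (0.55, 0.0198). SLC7A11 fell (-1.14, 0.00937). In tumours grown alone only JDP2 of this list was called, as higher (1.12, limma adjusted p = 0.0377), where 0.305% of all genes rose. Alternative runs are not given for this list. Of SLC7A11 the mean was 65.7 ± 5.38 normalised reads in tumours grown alone under vehicle, 192 ± 74.7 in mixed tumours under vehicle and 82.6 ± 3.81 in mixed tumours under drug (SD, n = 3).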

How the data were processed

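RNA of 41 libraries in 15 groups was sequenced from TruSeq libraries, per the labels' protocols, and deposited in 6 tables. Tools listed in the submitters' processing notes are DESeq 1.18.0, HTSeq 0.5.4 and STAR 2.3.0e, with hg19 and mm9 as genome builds. The handling of mouse reads in xenografts is not stated in the labels. Values as deposited are a normalised signal per gene: the authors divided read counts by a size factor for each library, and whole reads were recovered for 100% of values (within 0.1 of a whole number). All columns were mapped to samples by title.

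Each table was fitted separately, with all of its groups, by limma 3.58.1 in R 4.3.3 on log2(value + 1) with an intensity trend, over genes with a table mean of at least 10. P-values were adjusted by Benjamini-Hochberg over all genes tested, and 0.05 was the threshold. Fold changes of low genes are understated on this scale. The 42 members, the 90 further pathway genes, the arms and the markers were chosen with earlier results of these data known. Any member could be named. Values in every library were given for ATF4, DDIT3, ASNS, XBP1 and HSPA5 and, per comparison, for up to 5 members a direction with the largest change among those called with a table mean of at least 50, and those of other members were added after the values had been seen. Of the further pathway genes up to 3 per direction and comparison with the smallest adjusted p could be named, with their values in the other comparisons.

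Libraries with the same replicate number deviated together in A375 culture between vehicle and 6 h (correlations 0.567, 0.310 and 0.566) and between 6 h and 48 h (0.436, 0.197 and 0.410). Between vehicle and 48 h those of replicates 1 and 3 did so too (0.402 and 0.320), and those of replicate 2 did not (0.028). The main fit held no block, and results with it are given as an alternative. Alternatives were other pseudocounts and filters, the replicate number as a block, quantile normalisation, the compared groups fitted alone, edgeR 4.0.16 and DESeq2 1.42.0 on the recovered reads, and leaving out each library. The fit was also run on simulated data with known changes and the same fixed dispersion for every gene. That setting lacks the uneven spread between replicates seen here, so it does not show how reliable the calls are.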

Additional observations from a re-analysis of the deposited data

Results flagged for a closer look

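In A375 tumours, the only groups of 4 libraries, 5 of 84 sets of values held a library far from the other 3 by Dixon's ratio of its gap to the whole range, where chance alone gives about 5%. In the vehicle group VLDLR was lowest in replicate 3 (ratio 0.842), and HSP90B1 and SDF2L1 were highest in replicate 4 (0.839 and 0.845). In the vemurafenib group PSPH was lowest in replicate 2 (0.919) and PDIA4 in replicate 4 (0.847).

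The drug response differed between mixed and unmixed A375R tumours by a limma interaction test for DDIT3 (difference of log2 changes 1.28), NUPR1 (1.72), PPP1R15A (1.01) and SHMT2 (0.62), with adjusted p-values given above. Of these, DDIT3 and PPP1R15A were not called in mixed tumours, and both were lower under drug in tumours grown alone.

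For other members every drug library was above every vehicle library in 1 setting and below every vehicle library in another under the same drug. Many of these values did not pass the test in at least 1 of the settings, and the differences of log2 changes were not tested. The share of all genes with such opposite separation was not computed. With 2 libraries a group, as in Colo800 and UACC62, complete separation arises often by chance, so the list is a description only. A375 culture at 48 h minus Colo800 gave PSAT1 -1.50, CBS -0.63, ALDH18A1 0.91, VLDLR 2.21, EIF2AK3 0.71 and CALR 1.01. A375 culture minus UACC62 gave ALDH18A1 1.15 and CALR 0.40. Colo800 minus UACC62 gave PPP1R15A -1.99, CHAC1 -0.63, CBS 0.91, VLDLR -0.58, EIF2AK3 -0.58, ATF6 -0.46 and SYVN1 -0.72. A375 culture minus A375 tumours, which differ also in dose and in the kind of RNA, gave PYCR1 -1.15, EIF2AK3 0.68 and CALR 0.72.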

How the results depend on the processing

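No called member changed direction under any alternative run. Members called under every alternative numbered 9 of 17 in A375 culture at 48 h, 11 of 16 between 6 h and 48 h, 29 of 35 in Colo800, 18 of 29 in UACC62, 16 of 25 in H3122, 28 of 30 in A375 tumours and 2 of 6 in mixed A375R tumours, and 0 in the other comparisons. Of 41 values named without a call, 623 recomputed values held 26 changes of sign and 18 that passed. The cause of the changes below was not tested.

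Counts of members called moved by more than 1.5 times in UACC62, from 29 to 19 without the first vehicle library, and in comparisons with few calls. At 6 h in A375 culture 1 was called with no filter on low values or with the 2 groups alone, and 4 with the replicate block. In A375R tumours grown alone it was 1 with no filter, with quantile normalisation or with edgeR, 4 with the replicate block, 5 with the 2 groups alone and 8 with DESeq2. Mixed against alone under vehicle gave 1 with quantile normalisation or the block and 2 with DESeq2. Under vemurafenib it gave 0 with no filter, quantile normalisation, edgeR or the 2 groups alone, and 2 with the block or DESeq2. The difference of drug responses gave 2 with no filter or quantile normalisation and 8 with DESeq2.

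Leaving out 1 library at a time gave 0 to 3 calls at 6 h, 13 to 15 at 48 h, 12 to 20 between the times, 29 to 31 in A375 tumours, 18 to 28 in H3122, 19 to 35 in UACC62, 31 to 34 in Colo800, 0 to 6 in A375R tumours grown alone, 2 to 6 in mixed tumours, 0 to 1 and 0 to 2 for mixed against alone under vehicle and under drug, and 0 to 5 for the difference. The replicate block gave 22 calls at 48 h (added: PSAT1, PYCR1, SDF2L1 and XBP1 lower, adjusted p = 0.0262, 0.0351, 0.0148 and 0.0267, and ALDH18A1 higher, 0.0296) and 22 between the times, 30 in A375 tumours, 35 in Colo800, 30 in UACC62, 23 in H3122 (without HSP90B1, 0.0685, and DNAJC3, 0.110), 7 in mixed tumours and 6 for the difference, and outside A375 culture the samples share only a number. In H3122 same-numbered libraries deviated apart (correlation -0.209), and crossing the pairing, chosen after seeing the data, gave 33 calls (1 higher, 32 lower). Cultures of 2 libraries a group limit the precision of their values, and low genes such as NUPR1 in A375 culture rest on few reads.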

Other observations

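Baseline levels of several members differed between the lines. Tables were normalised separately, so levels are given here per 1000000 recovered reads in genes, as a description without a test. NUPR1 under vehicle was 61.8 ± 3.04 in Colo800 and 40.2 ± 0.33 in UACC62 (SD, n = 2), 0.55 ± 0.49 in A375 culture (SD, n = 3) and 0 in H3122. ALDH1L2 was 77.9 ± 6.14 in UACC62 and 0.10 ± 0.15 in H3122 (SD, n = 2). CHAC1 was 41.9 ± 6.79 in H3122, 37.9 ± 3.37 in Colo800, 4.12 ± 0.035 in UACC62 (SD, n = 2) and 3.87 ± 2.48 in A375 culture (SD, n = 3). CBS was 89.9 ± 5.24 in H3122 and 89.6 ± 5.86 in Colo800 (SD, n = 2) and 5.60 ± 0.97 in A375 tumours (SD, n = 4). Across the 40 members tested in 5 tables, the log2 changes of pairs of late comparisons had Pearson correlations from 0.026 to 0.555, and across 11665 genes from 0.281 to 0.770. These are across genes, which are not independent replicates.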
